A study of Mus musculus with 4 samples.

Results

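St6galnac2 encodes a sialyltransferase of the Golgi apparatus that adds sialic acid to the N-acetylgalactosamine of O-linked glycans on glycoproteins. IGF2BP3 is a cytoplasmic RNA-binding protein with RRM and KH domains that influences the stability and translation of the mRNAs it binds. In the testis, germ cells and somatic cells lie together, and post-meiotic germ cells depend heavily on control of stored mRNAs.

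IGF2BP3 binding was measured by eCLIP-seq, in which RNA is crosslinked to protein by UV light, immunoprecipitated (IP) with an antibody and sequenced beside a size-matched input (SMInput) of the same lysate. The testes came from wild-type C57BL/6 mice aged 8 weeks and held germ and somatic cells. The 4 libraries formed 2 replicates, each with 1 IP made with an antibody to IGF2BP3 and 1 SMInput made without antibody. Library totals recovered from the values were 5133438 IP reads and 8706391 SMInput reads in replicate 1, and 4637612 and 16696122 in replicate 2.

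St6galnac2 is 1 of 14580 protein-coding gene entries with a read cluster in either replicate. It was chosen by its own measured clusters, so every value below is a description and none was tested. Its members were the clusters with the centre inside the gene span on the minus strand, chr11:116675303-116694868 in mm10. They numbered 63 of 337234 clusters in replicate 1 and 56 of 216354 in replicate 2.

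A cluster was called significant when its log2(fold change) of IP over SMInput and its −log10(P value) were both at least 2. All 63 clusters of St6galnac2 in replicate 1 were significant, where 4.92% of all clusters were. All 56 in replicate 2 were significant, where 13.2% were. The log2(fold change) ran from 2.03 to 4.64 with a median of 3.04 in replicate 1, and from 2.09 to 5.01 with a median of 3.37 in replicate 2. Thus the lowest members lay just past the threshold, and no cluster of the gene lay below it.

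The positions went against a description of the gene as bound along its whole mRNA. GENCODE gives the symbol to 2 protein-coding gene entries on this strand. One has the full-length transcript of 9 exons that encodes the sialyltransferase, and the other a nested transcript of 3 exons at chr11:116677483-116681290. The span of the nested entry held 51 of the 63 clusters in replicate 1 and 47 of the 56 in replicate 2, so most counts given for St6galnac2 come from bases that this second entry also spans. No cluster of any enrichment touched exons 1 to 6, which hold 1080 of the 3643 bases of the full-length mRNA. Every cluster lay between positions 116676740 and 116680864, in the last part of the gene. Introns 7 and 8 held 0 clusters in either replicate.

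**Figure D1:**
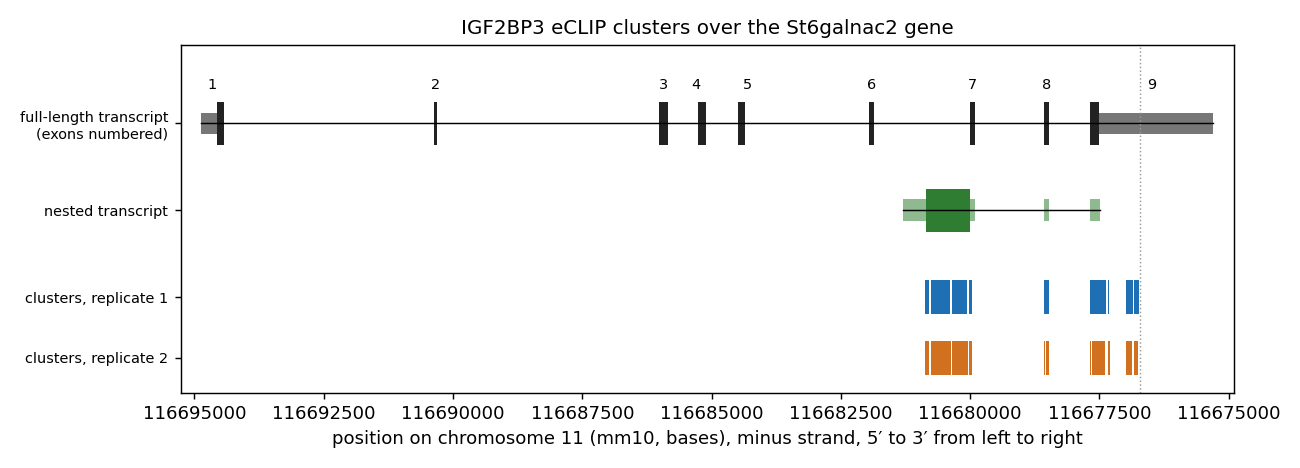
Map of St6galnac2 with position on chromosome 11 (mm10, bases) on the horizontal axis, the 2 transcript models above and the clusters of replicates 1 and 2 below; thick boxes are coding, thin boxes are UTRs, and the dotted line marks the 3′ end of the RefSeq mRNA. The 63 and 56 clusters lie over the nested reading frame and exons 7 to 9, and none lies over exons 1 to 6.

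Most clusters lay in a reading frame of the nested transcript that falls inside intron 6 of the full-length transcript. This frame spans chr11:116679991-116680860, is 870 bases long with its stop codon, encodes 289 residues and shares no coding base with the sialyltransferase frame. It held 37 of the 63 clusters in replicate 1 and 36 of the 56 in replicate 2. Clusters covered 89.0% of its bases in replicate 1 and 91.1% in replicate 2. By contrast, the annotated 5′UTR of the nested transcript, 430 bases long, was covered over 1 base in replicate 1 and 4 bases in replicate 2, both next to the start codon.

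The strongest enrichment of the gene sat at the 3′ end of this frame, in clusters on and beside its stop codon. In replicate 1, the cluster at chr11:116679984-116680015 holds the stop codon and had a log2(fold change) of 4.57, from at least 377 IP reads and 27 SMInput reads. Its upstream neighbour at chr11:116680016-116680021 does not touch the stop codon and had 4.64, the highest of the replicate. In replicate 2, the cluster with the stop codon, chr11:116679984-116680011, had 4.68, from at least 334 and 47 reads, and its upstream neighbour chr11:116680012-116680021 had 5.01. Both replicates therefore placed their 2 highest clusters in the same 38 bases. These bases also cross the border of intron 6 and exon 7, because the last 2 bases of the stop codon, AG, are the last 2 bases of the intron.

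A second rise lay in the middle of the frame. In replicate 1, the log2(fold change) reached 4.13 at chr11:116680553-116680574. In replicate 2, it reached 4.14 at chr11:116680523-116680534. The maxima of the replicates were thus close but did not overlap here. Toward the start codon, enrichment fell at the same base in both replicates, between positions 116680674 and 116680675. It went from 3.47 to 2.48 in replicate 1 and from 3.75 to 2.78 in replicate 2. The first 186 bases of the frame stayed at this lower level, with 5 clusters between 2.48 and 2.68 in replicate 1 and 5 between 2.78 and 2.99 in replicate 2.

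**Figure D2:**
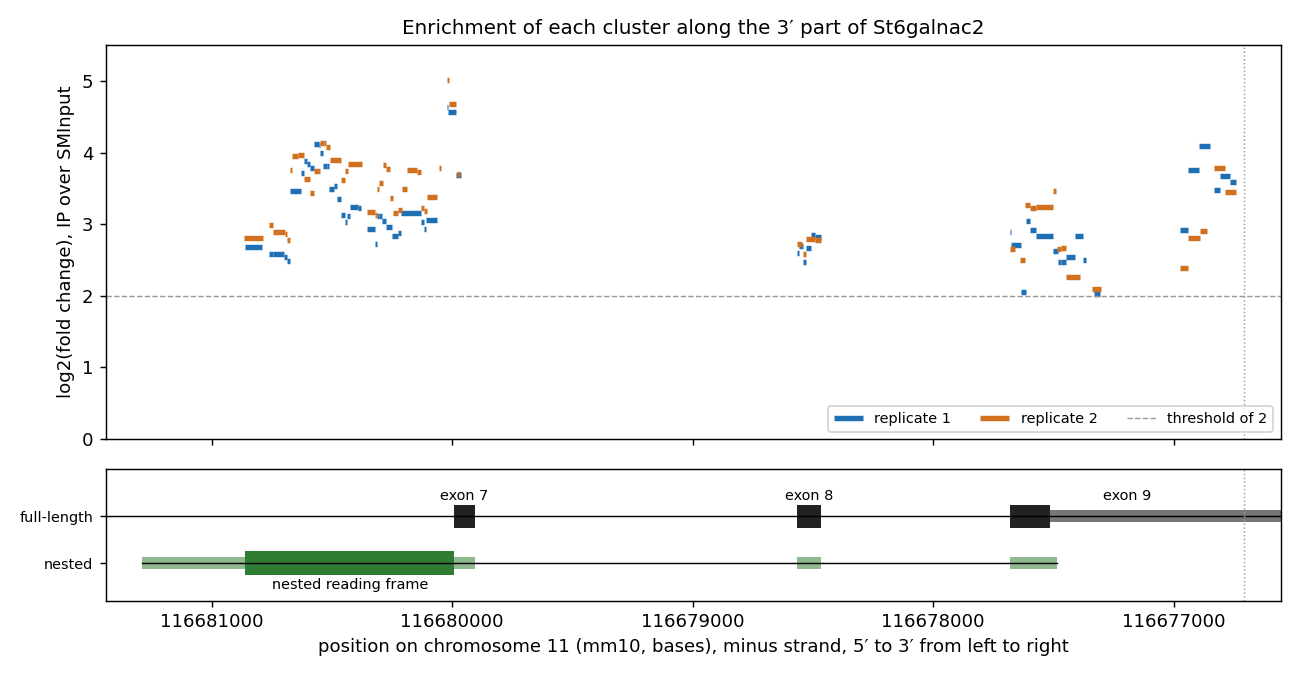
log2(fold change) of IP over SMInput (vertical axis) for each cluster, drawn over its bases on chromosome 11 (mm10, horizontal axis) in replicates 1 and 2, with the transcript models below and the threshold of 2 dashed. The highest bars, 4.64 and 5.01, stand at the end of the nested reading frame, and the lowest, 2.03 and 2.09, in the 3′UTR.

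The sequences at both ends of the nested frame and at a motif in its middle are shown, since the clusters follow this frame. They were read from GRCm38 on the minus strand, with the start codon, the stop codon and an AAACC match in capitals. Their positions are chr11:116680841-116680870, chr11:116679984-116680013 and chr11:116680518-116680547.
start of the nested frame: cctaacaccaATGagctccccctcccacac
stop of the nested frame: tccacttctatcgtgggaccTAGgcctcac
middle of the nested frame: aagctctctctcgAAACCcttccctgacac

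Exons 7 and 8 and the first 168 bases of exon 9 are coding sequence of the full-length mRNA, and the nested transcript holds them as 3′UTR up to its own end at position 116677483. Exon 7, 84 bases long, held 1 cluster per replicate, with a log2(fold change) of 3.69 in replicate 1 and 3.70 in replicate 2. Exon 8 held 6 and 4 clusters, with medians of 2.68 and 2.75. Its 100 bases were covered over 100% and 94% of their length, and the outermost clusters ended exactly on its first and last base in both replicates. The coding part of exon 9 held 6 and 5 clusters, with medians of 2.86 and 3.22, and its coverage also ended on the exon's first base. Cluster edges thus coincided with the annotated splice sites of exons 8 and 9. At exon 7, 0 clusters began or ended on its first or last base, and 1 cluster per replicate crossed its border with intron 6.

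The 3′UTR of the full-length mRNA held 13 clusters in replicate 1 and 10 in replicate 2, with medians of 2.83 and 2.74. They fell into separate groups. The clusters nearest the stop codon continued the coding part of exon 9, and the lowest of the gene, 2.03 and 2.09, lay just beyond them. No cluster covered the next 326 bases, chr11:116676975-116677300. Enrichment then rose again near the 3′ end, to 4.10 at chr11:116676847-116676892 in replicate 1 (131 IP and 13 SMInput reads) and to 3.78 at chr11:116676786-116676831 in replicate 2 (84 and 22 reads). These maxima did not overlap. Over the replicate 1 maximum, clusters of replicate 2 had 2.90 and 2.81. Over the replicate 2 maximum, clusters of replicate 1 had 3.68 and 3.48. The last cluster stopped 35 bases before the end of the RefSeq mRNA. The 1402 bases by which the GENCODE model runs past that end held 0 clusters.

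The end of the RefSeq mRNA, chr11:116676705-116676734, is shown because coverage stops beside it. Its capitals mark AATAAA, the usual polyadenylation signal, at positions 116676723 to 116676728.
end of the RefSeq mRNA: agcttcAATAAAcagcacctgatgcagtcc

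Coverage therefore depended on the transcript. Bases covered in both replicates made up 16.8% of the full-length mRNA, 30.1% of the RefSeq mRNA and 63.3% of the nested mRNA. Within the full-length mRNA, the shares were 0% of the 5′UTR, 23.3% of the coding sequence and 15.9% of the 3′UTR. When only clusters in exons of the full-length mRNA were counted, a choice made after seeing the data, 26 and 20 clusters were left, with medians of 2.83 and 2.78. Of these, 14 and 11 lay in exon parts that both transcripts hold, with medians of 2.77 and 2.79, and 12 and 9 in the 3′UTR of the full-length model alone, with medians of 2.88 and 2.67. The medians of the nested frame, 3.13 and 3.63, were above both.

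Within this gene, the replicates largely overlapped in position. The matching share over all significant clusters was not counted. Of the clusters in replicate 1, 62 (98.4%) shared at least 1 base with a significant cluster of replicate 2, and 55 (98.2%) of those in replicate 2 did so in return. Clusters covered 1462 bases in replicate 1, 1422 in replicate 2 and 1387 in both. Boundaries varied, and 3 clusters had the same start and end in both replicates. Over the 1387 shared bases of this single locus, Pearson's r of the log2(fold change) was 0.71, given as a description because neighbouring bases share clusters and reads.

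Replicate 2 was the higher one in the nested frame but not near the 3′ end. Among overlapping pairs of clusters, replicate 2 was higher in 56 of 63 pairs in the frame, with a median difference (replicate 2 minus replicate 1) of 0.33. In the 3′UTR it was higher in 8 of 17 pairs, and the median difference was -0.11. In the frame, 35 of 36 clusters of replicate 2 and 22 of 37 of replicate 1 have only a lower bound on their reads, so read levels there could not be ordered between replicates. The SMInput of replicate 2 was the deepest library, and the part of depth in these differences was not tested.

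Read support was high for this gene. The median cluster of St6galnac2 had at least 313 IP and 52 SMInput reads in replicate 1, and at least 222 and 79 in replicate 2. Across all significant clusters below the P value ceiling with recovered reads, the medians were 12 and 3 in replicate 1 and 6 and 2 in replicate 2. The sets differ, since the medians of the gene include its clusters at the ceiling. In its 3′UTR, where no cluster stood at the ceiling, the medians were 98 and 22 in replicate 1 and 91.5 and 48 in replicate 2. The authors list the smallest P values as a −log10 of 400. Below it, the highest value listed for a chi-square test was 88.2 in replicate 1 and 88.0 in replicate 2. A listed 400 thus marks a value past that level and does not give its size. At 400 stood 22 and 37 clusters of the gene, where 0.046% and 0.151% of all clusters did. These made up 14.2% of the 155 clusters listed at 400 in replicate 1 and 11.3% of the 327 in replicate 2. Nearly all lay in the nested frame (22 and 35), and the other 2 lay in the coding part of exon 9 in replicate 2.

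**Figure D3:**
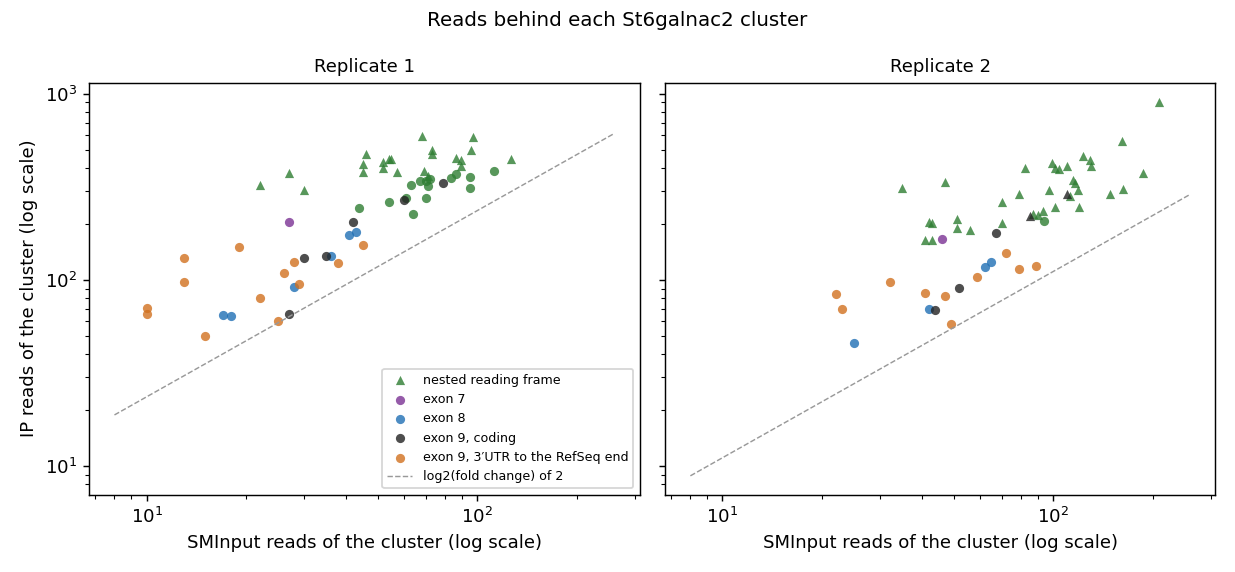
IP reads against SMInput reads of each St6galnac2 cluster on log axes, for replicates 1 and 2, coloured by position; circles are recovered read numbers, triangles are the fewest reads possible for clusters at the P value ceiling, and the dashed line is a log2(fold change) of 2. Every cluster lies on or above the line. The highest plotted IP read numbers, at least 590 in replicate 1 and 908 in replicate 2, belong to clusters of the nested frame.

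Clusters of this gene were short, with a median of 16 bases in replicate 1 and 20.5 in replicate 2, beside 42 and 47 over all clusters, so their number does not count separate binding sites. By number of significant clusters, St6galnac2 ranked 1 among protein-coding genes in replicate 1 and 2 in replicate 2. Gm20388, named after its value was seen, ranked 1 in replicate 2 and has a span of 4434882 bases. The nested entry alone, with 51 and 47, would rank 2 and 4. After St6galnac2, the genes with the most significant clusters in the replicate with fewer included Nsun4, a mitochondrial RNA methyltransferase, with 43 and 42, Lrrc37a with 46 and 41, and Reep6, a protein of the endoplasmic reticulum, with 35 and 35. By bases covered in both replicates, the order changed, and St6galnac2 ranked 3 with 1387, below Lrrc37a with 1428. By share of the mRNA covered, the nested transcript ranked 1 of 792 entries with at least 5 significant clusters per replicate and a coding transcript in the basic GENCODE set, whose median was 2.64%, and the full-length mRNA ranked 67. In 33.0% of protein-coding genes with a cluster, both replicates had a significant one.

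Likeness was measured as the mean absolute difference in covered share over 20 bins of the spliced mRNA in both replicates, 40 values in all. The nearest of 790 genes were Vapa at 0.117, Serinc3 at 0.119, Tmem170 at 0.119, Pign at 0.128 and Lrrc28 at 0.133, where the median gene was at 0.213. In the full-length mRNA, coverage was limited to bins 6 to 13 in both replicates, so this likeness rests largely on bins with no coverage. With the nested transcript, compared after the positions were seen, the nearest were Dmrtb1 at 0.251, Cfap126 at 0.274, BC048671 at 0.280, Syngr4 at 0.301 and Tmem39b at 0.308, where the median was 0.599.

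Sequence motifs were counted on the mRNA strand over the nested frame and exons 7 to 9 up to the RefSeq end, of which 68.2% was covered in both replicates. AAACC had 3 of 5 matches in covered bases, TGGAC 3 of 4, GGAC (which TGGAC contains) 5 of 7 and GAACA 1 of 4. One GGAC match lies in the clusters that hold the stop codon, at positions 116679995 to 116679998, and the one at 116680020 to 116680023 runs past the edge of the highest clusters. The adenosine methylation motif (A, G or T, then A or G, then AC, then A, C or T) had 27 of 50 matches in covered bases, and CAT followed by A, C or T had 16 of 23. A match here is a description of letters and not a binding site.

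Windows of 100 bases around each cluster centre were compared with those of all other significant clusters. AAACC was in 20.6% of the St6galnac2 windows in replicate 1 and 17.9% in replicate 2, beside 8.60% and 8.12% elsewhere. TGGAC was in 19.0% and 17.9%, beside 9.60% and 8.86%. These windows overlap and share the same few matches. GAACA was in 12.7% and 8.93%, beside 8.86% and 8.38%, and GGAC in 23.8% and 23.2%, beside 26.3% and 24.0%. The methylation motif was in 81.0% and 76.8%, beside 83.4% and 82.1%, and the CAT motif in 57.1% and 53.6%, beside 66.8% and 65.2%. The nested frame had a GC content of 61.8%, where the median coding sequence had 51.8%.

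Other genes of sialic acid and O-glycan synthesis were counted beside St6galnac2. Of 20 sialyltransferases, 15 had a cluster and 4 of these (26.7%) had a significant one in both replicates, beside 33.0% of all protein-coding genes with a cluster. The 4 were St6galnac2, St3gal3, St8sia2 and St8sia3. Only St6galnac2 and St8sia3, which builds chains of sialic acid, had significant clusters that overlapped between replicates. How many of all genes had such overlap was not counted, so overlap is given here and below as a description. St8sia3 had 4 significant clusters in replicate 1 and 5 in replicate 2, with maxima of 3.96 and 4.27. Within the family of St6galnac2, St6galnac1, St6galnac4 and St6galnac5 had 0 clusters, St6galnac6 had 7 and 5 with 0 significant, and St6galnac3 had 31 and 19 with 0 and 1 significant.

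Among 19 GalNAc-transferases, which start O-glycans, 5 of 16 with a cluster (31.2%) had significant clusters in both replicates. These were Galnt1, Galnt3, Galnt7, Galnt11 and Galntl6. This share and that of the sialyltransferases were near or below the 33.0% of all genes. Clusters of Galnt3 and Galntl6 overlapped between replicates, which was not set against all genes. Of 7 genes listed for the making of O-glycan cores, 4 had a cluster, and 1, C1galt1, had a significant one in both replicates, without overlap. None of the 6 genes for sialic acid supply and none of the 4 sialidases had a significant cluster in both replicates, though 4 of the 5 supply genes with a cluster had one in replicate 2, where 55.3% of all genes with a cluster did. Over the 43 of these 56 genes with a cluster, 10 (23.3%) had a significant one in both replicates. Among them St6galnac2 alone had every cluster significant in both, which was also so for 15 of 802 gene entries with at least 5 significant clusters per replicate, both entries of St6galnac2 included. Prr30, with 35 and 31, and Spata3, with 32 and 25, were others, named after their values were seen.

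The tissue was checked against cell type markers by the presence of any cluster. All 6 spermatid, 4 spermatocyte, 4 Sertoli cell and 4 Leydig cell markers had one, against 1 of 4 genes of other organs (Gfap, with 2 clusters in replicate 1). A cluster is a weak sign, since 66.4% of all 21951 protein-coding genes had one. Spermatid markers had 61 and 58 clusters, spermatocyte markers 199 and 163, Sertoli cell markers 95 and 76, and Leydig cell markers 31 and 36. Single genes carried some of these sums, with 132 and 108 clusters in Sycp1 and 82 and 65 in Wt1. Significant clusters in both replicates occurred in 2 of the 6 spermatid markers, beside 33.0% of all genes with a cluster. They overlapped between replicates in Acrv1 and did not in Spaca1, a description that was not set against all genes. In replicate 2 alone, Sycp1 had 6, Wt1 6, Insl3 3 and Cyp11a1 1, and in replicate 1 alone, Rhox5 and Star had 1 each. The libraries are of whole tissue, so the cells that carried the bound St6galnac2 RNA, their number and their RNA content cannot be told apart.

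Few clusters lay around the gene. The long non-coding RNA 1810032O08Rik overlaps its annotated 3′ end on the plus strand and had 2 clusters per replicate, 0 of them significant. One of the 2 lies on the snoRNA Snord1a, the next annotated gene on the 3′ side, which is inside this long non-coding RNA. The next cluster on the minus strand lay 21303 bases beyond the 3′ end in replicate 1 and 52620 in replicate 2, and neither was significant. On the 5′ side, the next lay 111744 bases away in replicate 1 and was not significant, and 109118 bases away in replicate 2, where it was significant with a log2(fold change) of 3.85. The pseudogene Gm11735, next on the 5′ side, had 0.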

How the data were processed

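The authors trimmed reads with cutadapt, removed ribosomal RNA reads with Bowtie2, aligned with STAR to mm10, collapsed duplicates by molecular identifier and called clusters with Clipper, separately for each replicate. The deposited −log10 P values compare IP and SMInput reads of a cluster, from 0 to a ceiling of 400. The deposited log2 values are the authors' ratios of IP to SMInput reads, scaled to library size.

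Members and lists were chosen with earlier results of these data known, and no test was made. Genes were named by likeness, by rank, as neighbours, or from lists of sialic acid genes and markers; 1 gene named by rank is not reported here. Positions were read on GENCODE M21 and RefSeq models of GRCm38, with the transcript of the longest coding sequence for each gene; 0 clusters ran past a chromosome end. Read numbers and library totals are whole numbers that return both listed values. They had a single solution for 41 and 19 clusters of the gene. For the 22 and 37 at the ceiling they are the fewest reads whose calculated −log10 value reaches 88.2. This was the highest listed for a chi-square test in either replicate, and replicate 2 alone had 88.0. Python 3.11.15, pandas 2.3.3, scipy 1.17.1 and pysam 0.24.0 were used.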

Additional observations from a re-analysis of the deposited data

How the results depend on the processing

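Of 27 alternatives, 17 gave a count within 1.5 times the reported one or a value within 1 SD between replicates. With both thresholds at 3, replicate 1 had 33 significant clusters and replicate 2 had 38, 31 were shared, and 3.35% of the full-length mRNA was covered in both replicates. When each cluster went to the nearest RefSeq start site on either strand, St6galnac2 had 0 clusters in each replicate, because Snord1a starts nearer. The covered share was 63.3% for the nested and 30.1% for the RefSeq transcript, and 17.2% to 18.9% with either replicate alone. In replicate 2, the median log2(fold change) was 2.90 with 1 value per exon, and 2.78 in exons of the full-length mRNA alone, an alternative chosen after seeing the data.

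With 2 replicates, the spread between replicates is not well measured. Clusters at the ceiling of P cannot be ordered by it. Reads within a cluster and its neighbours are not independent. In the exon parts that both transcripts hold, the transcript that the reads came from cannot be told apart. Clusters past the annotated end of the nested transcript were placed by the annotated models alone. Coverage ran across that end in both replicates, and the transcript that these clusters came from was not tested.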
